A study of Homo sapiens with 8 samples.

Results

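Antisense noncoding genes whose names end in -AS and a number, expressed in SK-UT-1 cells, were compared between vehicle and TP-472 treatment and set beside the sense genes they are named for. The members were every gene with such a name whose CPM (the count in every 1000000 counts of its library) exceeded 1 in at least 4 of the 8 libraries. There were 217 members, among 1398 genes with such a name and 60282 genes of all kinds in the count table. Of these 1398 genes, 1111 exceeded 1 CPM in no library and 162 did so in all 8.

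An antisense gene lies on the DNA strand opposite to another gene and is commonly named for that neighbour. Many such genes start next to the promoter of a protein-coding gene and are transcribed away from it, others run into the end of the gene, and some lie wholly within it. Their RNAs are usually less abundant than messenger RNAs, and only some have a known function.

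SK-UT-1 is an established uterine leiomyosarcoma line, derived from a malignant smooth muscle tumour of the uterus. The cells received either DMSO (VEH) as the vehicle or 5 uM TP-472, a small-molecule inhibitor of the bromodomains of BRD9 and BRD7, for 48 hours. Bromodomains are protein modules that bind acetylated lysine, and BRD9 is a subunit of a SWI/SNF chromatin remodelling complex. Each treatment had 4 libraries of total RNA, both arms came from this 1 line with no genotype difference, and the study's methods speak of biological replicates for its experiments without saying what separated these libraries, so p-values measure the spread between these libraries.

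The vehicle libraries held 34433596, 36634184, 32574716 and 36407850 estimated counts, and the TP-472 libraries held 38545695, 37674588, 37427131 and 36246466. A gene at 1 CPM therefore rested on 32.6 to 38.5 counts. Vehicle replicate 3 stood apart from the other libraries. Its median Spearman correlation with the other vehicle libraries was 0.914, whereas each other vehicle library had a median of 0.988 to 0.989 and the TP-472 libraries had medians of 0.993 to 0.997. It gave the highest or the lowest vehicle value in 165 of the 217 antisense genes (76.0%) and in 87.0% of all tested genes. Values without this library are given beside the results that rest on it.

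The labelled cell type was checked against its markers. ACTA2, a smooth muscle actin, was at 160 ± 16.7 CPM (SD, n = 4) with vehicle and 109 ± 3.52 with TP-472, and VIM, the mesenchymal filament vimentin, was at 2540 ± 673 and 1910 ± 57.3. Of the 7 smooth muscle markers tested, none was higher with TP-472 by the call used below. TAGLN was lower by that call (log2 fold change -0.67, adjusted p = 0.00397 by edgeR). DES and LMOD1, at log2 fold changes of -2.36 and -1.84, are given with no test because only their vehicle libraries exceeded 1 CPM. ACTA2 lay under the fold limit (-0.55, adjusted p = 0.00426 by edgeR). PDGFRB, a mesenchymal growth factor receptor, fell as well (-2.33, adjusted p = 0.000446). HOXA11, a uterine patterning factor, had a log2 fold change of 1.14. It is given with no test because its vehicle libraries, at 0.554 to 1.38 CPM, lay mostly under 1 CPM. MYH11, MYOCD and ACTG2, which mark mature smooth muscle, were at or near 0 in every library, as were the hormone receptors ESR1 and PGR. Among markers of other cells, PTPRC, CD3E, PECAM1 and CDH5 were at or near 0 and EPCAM and CDH1 stayed under 1 CPM. The summed level of 5 epithelial markers was 17.5 to 23.1 CPM with vehicle and 20.4 to 26.8 with TP-472, with KRT19 the most abundant in vehicle and KRT18 in TP-472. These 2 keratins moved in opposite directions, KRT18 rising (log2 fold change 1.08, adjusted p = 0.000726 by edgeR) and KRT19 falling (-0.85, adjusted p = 0.0151). The 3 endothelial markers summed to at most 0.144 CPM with vehicle and 0.581 with TP-472. The 4 leukocyte markers summed to 7.15 to 8.51 and 9.75 to 13 CPM, nearly all of it CD68, which is not restricted to leukocytes. BRD9 was at 80.1 ± 23.1 and 71.5 ± 3.17 CPM, and BRD7 at 56.2 ± 0.583 and 60.8 ± 2.65, and neither passed the test. The part of these marker changes in the results on antisense genes was not tested.

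All 215 members whose sense gene was found in the annotation lay on the strand opposite to it. In 139 of them the 2 genes were head-to-head, meaning that the closest of their annotated transcript starts lay within 1000 bases of each other, with a median of 100 bases between them. Every distance between starts below is of this kind, unless it is said to be between outermost starts. The outermost starts of the 2 genes lay within 1000 bases in 87 of the 139, and in the other 52 only starts of other annotated transcripts did. Another 45 were tail-to-tail, 9 lay inside the sense gene, 5 started inside it, 16 overlapped it in another way and 1 lay apart from it. The 2 others, such as HOXB-AS1, are named for a gene cluster or for a name that the table did not hold. Exons of the antisense gene and of its sense gene shared at least 1 base in 161 members and none in 54. Where they did, a median of 9.2% of the antisense exon bases was shared. In 25 of the 151 members with exon bases under an opposite-strand exon of any tested gene, the gene with the largest such overlap was not the one in the name, as with IDI1 for IDI2-AS1.

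The measurement of an antisense RNA depends on reads being assigned to the correct strand. The study's methods call the libraries strand-specific, while the kit named in the labels does not state strand, and the library type given to the quantifier is not given in the sources used here. Where exons of both strands overlap, reads of the 2 genes can therefore not be told apart with certainty. In the whole table, 24 numbered antisense genes had at least 50% of their exon bases under exons of an opposite-strand gene at 50 CPM or more. Of these, 19 were under 1 CPM. Over all 24 the median was 0.0488 CPM, and per length they reached a median of 0.163% of the opposite gene's level. The 5 above 1 CPM are members and stood far above that median, with ARF4-AS1 at 2.22%, ELOA-AS1 at 8.62%, ZNF561-AS1 at 9.22%, LIMD1-AS1 at 11.9% and PCF11-AS1 at 14.7% of the opposite gene's level per length, and for these the part of misassigned reads was not tested.

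The start regions of 163 members were present by symbol in a table of RefSeq promoters (GRCh38.p14), each running from 250 bases before to 50 bases after the start. Of the 101 head-to-head members among them, 48 windows shared bases with the window of the sense gene, with a median of 202 shared bases. The windows of 4 antisense genes that changed with TP-472 are shown to make this arrangement visible, the first from a pair in which both genes fell and the other three from pairs in which the antisense gene alone passed the test. Each is written 5′ to 3′ on the antisense gene's strand, and capitals mark the stretch that also lies in the sense gene's window. They lie at chr5:43603181-43603480 on the minus strand (NNT-AS1), chr11:64246804-64247103 on the plus strand (PPP1R14B-AS1), chrX:46545240-46545539 on the plus strand (ZNF674-AS1) and chr2:8681812-8682111 on the minus strand (ID2-AS1).
NNT-AS1: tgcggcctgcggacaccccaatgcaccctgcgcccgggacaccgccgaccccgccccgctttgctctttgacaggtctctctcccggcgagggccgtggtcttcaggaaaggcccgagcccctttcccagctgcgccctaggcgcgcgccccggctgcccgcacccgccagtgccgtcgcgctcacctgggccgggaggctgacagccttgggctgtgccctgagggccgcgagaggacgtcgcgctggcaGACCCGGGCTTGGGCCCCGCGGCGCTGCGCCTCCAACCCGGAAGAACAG
PPP1R14B-AS1: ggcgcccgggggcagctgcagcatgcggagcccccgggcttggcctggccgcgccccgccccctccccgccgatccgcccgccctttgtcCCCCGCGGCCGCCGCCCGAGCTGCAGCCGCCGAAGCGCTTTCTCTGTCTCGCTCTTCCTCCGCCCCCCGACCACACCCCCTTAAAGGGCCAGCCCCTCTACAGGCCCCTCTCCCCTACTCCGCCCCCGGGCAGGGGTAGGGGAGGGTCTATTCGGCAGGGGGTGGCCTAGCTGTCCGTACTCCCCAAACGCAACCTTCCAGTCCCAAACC
ZNF674-AS1: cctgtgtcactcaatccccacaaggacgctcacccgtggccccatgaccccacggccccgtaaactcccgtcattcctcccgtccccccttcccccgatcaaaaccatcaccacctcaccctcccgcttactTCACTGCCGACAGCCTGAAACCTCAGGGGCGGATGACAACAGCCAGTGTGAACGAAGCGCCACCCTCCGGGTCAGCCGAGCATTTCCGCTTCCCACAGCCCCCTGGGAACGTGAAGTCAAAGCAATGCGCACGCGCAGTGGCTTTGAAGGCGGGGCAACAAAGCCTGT
ID2-AS1: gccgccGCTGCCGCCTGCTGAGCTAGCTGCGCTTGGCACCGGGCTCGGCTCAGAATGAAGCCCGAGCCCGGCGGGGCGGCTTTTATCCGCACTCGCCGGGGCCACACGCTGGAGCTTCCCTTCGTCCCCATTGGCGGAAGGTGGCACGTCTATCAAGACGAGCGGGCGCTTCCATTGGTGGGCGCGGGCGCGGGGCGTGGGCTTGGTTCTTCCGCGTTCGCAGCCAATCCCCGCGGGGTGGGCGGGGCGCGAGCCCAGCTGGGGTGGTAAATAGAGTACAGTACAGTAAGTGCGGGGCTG

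The shared stretch was 49 bases in NNT-AS1, 210 in PPP1R14B-AS1, 168 in ZNF674-AS1 and 294 in ID2-AS1. Between the RefSeq starts of antisense and sense gene there were 50, 111, 69 and 195 bases, in the same order. The 4 windows were rich in G and C, at 74.0%, 73.3%, 62.0% and 69.0%. Over all 163 members with a window the median was 65.7%, against 58.7% over the 35116 windows of the table, and the median number of CG dinucleotides was 25 against 14.

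Short motifs were searched in these windows on both strands, as a description of the letters only. The GC box GGGCGG was present in 62.6% of the members' windows and in 45.0% of all windows, and in all 4 windows shown. CCAAT was present in 34.4% and 34.6%, and the TATA box TATAAA in 7.98% and 11.5%. The ETS motif CCGGAAG was present in 14.7% of the members' windows and in 10.3% of all windows, and lies in the capitals of NNT-AS1. The other letters searched were TGANTCA, the AP-1 motif, in 4.91% against 7.71%, and the E-box CACGTG in 9.2% against 7.26%. None of these motifs contains another. The GC box was in 56.0% of 25 windows of genes called higher, 75.0% of 28 called lower and 60.9% of 110 not called. The median share of G and C was 59.3% in the windows called higher and 68.3% in those called lower. The part of base composition in this split was not tested.

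The members were of low abundance. On the TMM scale, in which library totals are adjusted by the trimmed mean of M-values, their median level was 3.76 CPM over all libraries, against 24.9 CPM for the 14073 genes tested. There were 66 members below 2 CPM, 31 above 10 and 5 above 50. Together they made up 0.174% of the libraries. Their summed level was 1815, 1647, 1938 and 1666 CPM with vehicle and 1707, 1684, 1636 and 1812 CPM with TP-472, and these ranges overlapped (exact permutation test, two-sided, p = 0.571, n = 4 per group). Where the sense gene was also tested, the antisense gene reached a median of 21.5% of its level per annotated exon length, from 2.24% at the 10th percentile to 144.6% at the 90th. In 28 of the 186 such pairs the antisense gene was the more abundant per length.

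Of the 217 antisense genes, 31 rose and 39 fell with TP-472, and 147 did not pass the test. A gene was called when edgeR's quasi-likelihood test, fitted over all 14073 genes, gave a Benjamini-Hochberg adjusted p under 0.05 and the fold change exceeded 1.5. All adjusted p-values of single genes below come from this test, and log2 fold changes are TP-472 over vehicle with their standard error (SE). The called share was 32.3%, against 26.9% of all genes tested, with 12.0% of all genes called higher and 14.9% lower. The 4 values of each group did not overlap in 90 members (41.5%), against 45.4% of all genes. The members had a median log2 fold change of -0.05 and all genes one of -0.03. Because 10 members exceeded 1 CPM in the libraries of 1 group only, they had to differ to be members, and the counts are a description. In bulk RNA, fewer cells of a kind and less RNA per cell cannot be told apart. Among the 162 above 1 CPM in every library, 18 rose and 27 fell (27.8%). A fit of the 12757 genes of all kinds above 1 CPM in every library called 24.8% of them. Without vehicle replicate 3, 36 members were higher and 30 lower, 57 of them among the 70 called with all libraries, while 25.5% of all genes were called. Leaving out TP-472 replicate 1, 2 or 3 gave 23, 18 and 16 lower, and the share of members called, 21.7%, 19.8% and 19.4%, was then close to that of all genes, at 20.3%, 19.4% and 19.1%. With the replicate number as a block 19 were lower, and 20.3% of members were called against 21.7% of all genes.

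**Figure D1:**
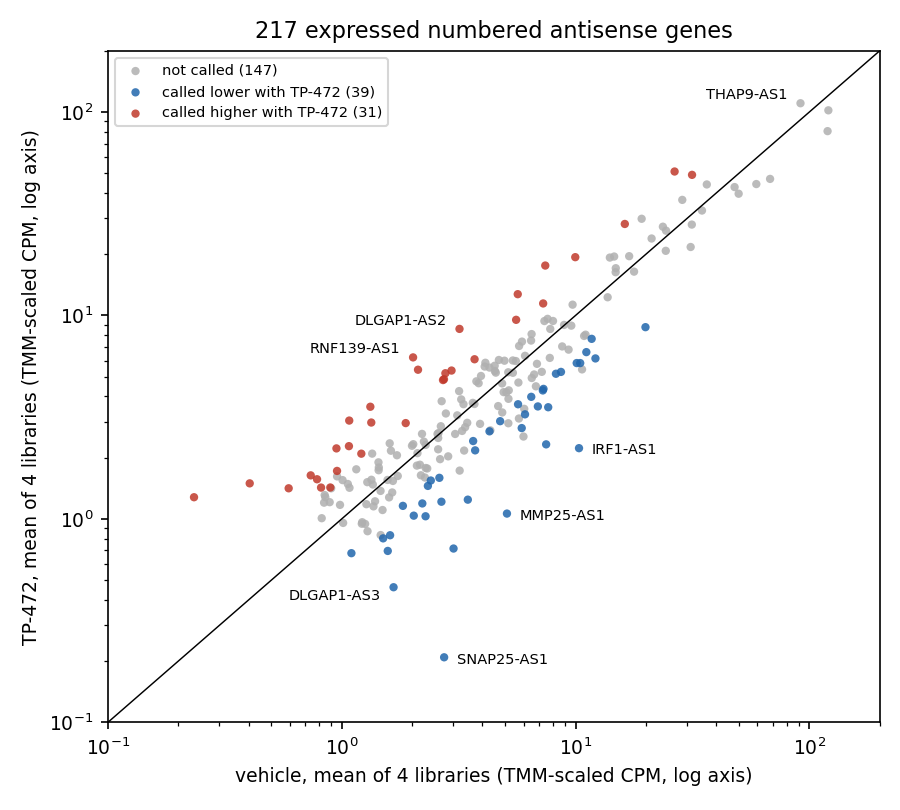
Mean level of each of the 217 antisense genes with vehicle (horizontal axis) and TP-472 (vertical axis), in TMM-scaled CPM on log axes, each point the mean of 4 libraries and the line marking equal levels. Most points lie near the line, the 31 genes called higher lie above it, the 39 called lower lie below it, and SNAP25-AS1 is farthest below.

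The sums over the called genes did not overlap between the groups. The 31 genes called higher summed to 153.5, 153.8, 122.2 and 157.2 CPM with vehicle and 272.4, 274.8, 272.0 and 287.0 CPM with TP-472. The 39 called lower summed to 216.6, 177.5, 306.0 and 180.1 CPM with vehicle and 113.8, 109.7, 108.0 and 118.8 CPM with TP-472. Vehicle replicate 3 gave the lowest of the first sums and the highest of the second. These sums were formed from genes chosen by the same contrast and carry no test. The coefficient of variation between libraries had a median of 21.8% over the members with vehicle, 13.7% without vehicle replicate 3, and 12.5% with TP-472.

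Other noncoding classes were set beside the antisense genes as counts only. Divergent transcripts, named with -DT for starting next to a gene and running away from it, had 7 of 40 tested genes higher and 6 lower (32.5%). LINC genes, the long intergenic noncoding RNAs, had 26 of 123 higher and 23 lower (39.8%). The snoRNA host genes, whose introns hold small nucleolar RNAs, had 16 of 25 higher and 0 lower by edgeR. Of 5 unnumbered -AS genes 1 was lower, and of 8 intronic -IT transcripts none was called. At an unadjusted p under 0.05, by DESeq2 and by limma-voom, there were likewise 0 snoRNA host genes lower and 0 -IT transcripts.

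The antisense genes that rose furthest, among called members averaging 2 CPM or more whose 2 groups did not overlap, were RNF139-AS1, PPP1R14B-AS1, DLGAP1-AS2, USP2-AS1, DLGAP1-AS1, EPB41L4A-AS1, ZNF674-AS1 and ID2-AS1. Among their sense genes that were tested, none rose and DLGAP1 fell.

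RNF139-AS1 starts 162 bases from RNF139, which encodes a ubiquitin ligase of the endoplasmic reticulum. It was at 2.30, 2.18, 0.955 and 2.64 CPM with vehicle and 5.90, 6.09, 5.74 and 7.16 CPM with TP-472. Every TP-472 library exceeded every vehicle library, and vehicle replicate 3 was the lowest. The log2 fold change was 1.62 ± 0.28 (SE, adjusted p = 0.00293), and 1.39 without vehicle replicate 3. RNF139 itself was at 26.4 ± 10.0 and 40.2 ± 1.28 CPM and did not pass the test (adjusted p = 0.119).

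PPP1R14B-AS1 (chr11:64245964-64248217, GRCh38, plus strand) is head-to-head with PPP1R14B, an inhibitor subunit of protein phosphatase 1, and 61.1% of its exon bases lie under exons of AP001453.3 and PPP1R14B. It was at 1.11, 1.32, 0.840 and 1.04 CPM with vehicle and 3.16, 3.97, 2.77 and 2.27 CPM with TP-472. The groups were well separated, and the log2 fold change was 1.5 ± 0.23 (SE, adjusted p = 0.00171). PPP1R14B was far more abundant per length, with its antisense gene at 3.90% of its level, and did not pass the test (log2 fold change 0.22, adjusted p = 0.261).

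USP2-AS1 starts 52 bases from USP2, a deubiquitinating enzyme, and runs away from it over chr11:119381778-119526664. It was at 1.36, 1.24, 1.45 and 1.26 CPM with vehicle and 3.31, 4.57, 3.19 and 3.17 CPM with TP-472. The vehicle values were close together and TP-472 replicate 2 was the highest of all. The log2 fold change was 1.42 ± 0.18 (SE, adjusted p = 0.000775). USP2 was at 2.87 ± 1.12 and 2.11 ± 0.320 CPM (log2 fold change -0.45, adjusted p = 0.242), and the ratio of antisense to sense differed by 1.71 on the log2 scale, given with no test because the gene was named for its separated values.

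EPB41L4A-AS1 (chr5:112160526-112164276) lies inside EPB41L4A, a member of the band 4.1 family of membrane skeleton proteins that did not pass the filter on low counts here. It was at 7.20, 9.05, 5.07 and 8.37 CPM with vehicle and 16.7, 17.0, 18.1 and 18.6 CPM with TP-472. It was the most abundant of the 8, and rose by 1.24 ± 0.18 on the log2 scale (adjusted p = 0.00131).

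ZNF674-AS1 (chrX:46545493-46548408) starts 36 bases from ZNF674, which encodes a zinc finger protein. It was at 6.04, 6.18, 3.04 and 7.39 CPM with vehicle and 12.4, 11.4, 13.6 and 13.5 CPM with TP-472. ZNF674 was at 9.48, 9.37, 9.09 and 7.81 CPM with vehicle and 8.31, 8.26, 9.35 and 6.84 CPM with TP-472. The antisense values separated fully (log2 fold change 1.17 ± 0.24, adjusted p = 0.00700), whereas those of ZNF674 overlapped (log2 fold change -0.13, adjusted p = 0.496). The ratio of antisense to sense differed by 1.35 on the log2 scale.

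ID2-AS1 starts 8 bases from ID2, an inhibitor of basic helix-loop-helix transcription factors, by the closest transcripts, and 3018 bases from it by the outermost starts. It was at 1.83, 0.661, 1.85 and 1.01 CPM with vehicle and 3.08, 2.93, 2.39 and 3.51 CPM with TP-472. The log2 fold change was 1.15 ± 0.32 (SE, adjusted p = 0.0227), and the call was lost without vehicle replicate 4 or without TP-472 replicate 1, 2 or 4, with adjusted p from 0.00319 to 0.0617 over the alternatives. ID2 was at 156 ± 35.4 and 125 ± 13.3 CPM and did not pass the test (adjusted p = 0.176).

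**Figure D2:**
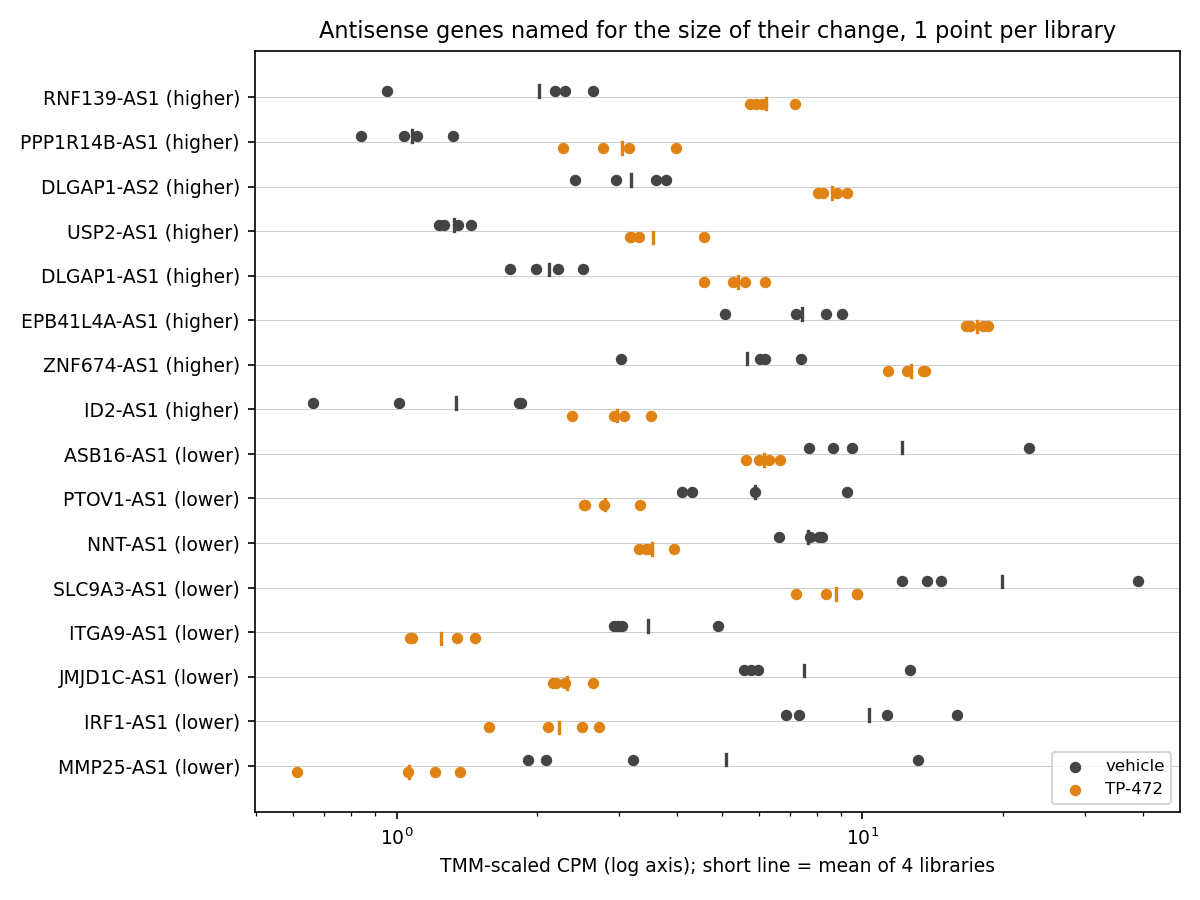
Level of the 8 antisense genes that rose and the 8 that fell furthest under the naming rule, in TMM-scaled CPM on a log axis, 1 point per library and a short line at each group's mean of 4 libraries. The vehicle and TP-472 points do not overlap in any of the 16, and in MMP25-AS1, SLC9A3-AS1 and ASB16-AS1 vehicle replicate 3 lies far above the other 3 vehicle points, at 13.1, 39 and 22.8 CPM.

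The 8 that fell furthest under the same rule were MMP25-AS1, IRF1-AS1, JMJD1C-AS1, ITGA9-AS1, SLC9A3-AS1, NNT-AS1, PTOV1-AS1 and ASB16-AS1. In 7 of them vehicle replicate 3 was the highest of all libraries, and the sense genes NNT and PTOV1 fell as well.

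IRF1-AS1 (chr5:132410636-132488702, plus strand) is tail-to-tail with IRF1, a transcription factor of the interferon response, and 17.6% of its exon bases lie under exons of IRF1. It was at 11.3, 6.87, 16 and 7.31 CPM with vehicle and 1.58, 2.11, 2.50 and 2.72 CPM with TP-472. Every vehicle library was above every TP-472 library, with a log2 fold change of -2.21 ± 0.31 (SE, adjusted p = 0.00113) and of -1.93 without vehicle replicate 3. IRF1 was at 43.5, 40.4, 56.4 and 41.1 CPM with vehicle and 36.6, 35.3, 34.6 and 35.0 CPM with TP-472. Its values did not overlap either, but the change was small and did not pass the test (log2 fold change -0.36 ± 0.13, adjusted p = 0.0511). The ratio of antisense to sense differed by -1.76 on the log2 scale.

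NNT-AS1 (chr5:43571594-43603230, minus strand) is head-to-head with NNT, the mitochondrial transhydrogenase that makes NADPH. It was at 8.06, 7.70, 6.63 and 8.18 CPM with vehicle and 3.31, 3.95, 3.47 and 3.43 CPM with TP-472. NNT was at 92.2, 99.2, 58.5 and 93.6 CPM with vehicle and 42.2, 43.9, 44.7 and 44.5 CPM with TP-472. Both fell, by 1.11 ± 0.14 (adjusted p = 0.000661) and 0.97 ± 0.16 (adjusted p = 0.00248) on the log2 scale, and without vehicle replicate 3 the antisense gene had a log2 fold change of -1.17. The ratio of antisense to sense differed by -0.15 on the log2 scale.

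JMJD1C-AS1 lies within the body of JMJD1C, which encodes a jumonji-domain protein that acts on chromatin. Its start is 652 bases from that of another JMJD1C transcript and 56621 bases from the outermost start of JMJD1C, and 29% of its exon bases lie under JMJD1C exons. It was at 5.76, 5.98, 12.7 and 5.56 CPM with vehicle and 2.20, 2.17, 2.64 and 2.30 CPM with TP-472. All vehicle libraries were above the TP-472 libraries, and vehicle replicate 3 was the highest. The log2 fold change was -1.69 ± 0.29 (SE, adjusted p = 0.00275), and -1.31 without that library. JMJD1C was at 194 ± 26.5 and 192 ± 25.8 CPM and did not pass the test (adjusted p = 0.959).

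ITGA9-AS1 is tail-to-tail with ITGA9, an integrin alpha chain. It was at 2.99, 3.05, 4.89 and 2.92 CPM with vehicle and 1.48, 1.07, 1.08 and 1.35 CPM with TP-472. The groups were apart with and without vehicle replicate 3, with log2 fold changes of -1.47 ± 0.23 (adjusted p = 0.00186) and -1.26. ITGA9 did not pass the test (log2 fold change -0.28, adjusted p = 0.229).

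PTOV1-AS1 starts 37 bases from PTOV1, a gene first described as overexpressed in prostate tumours, and 41.9% of its exon bases lie under exons of MED25 and PTOV1. It was at 5.87, 4.31, 9.26 and 4.10 CPM with vehicle and 2.80, 2.54, 2.52 and 3.33 CPM with TP-472. PTOV1 was at 46.7, 38.5, 101 and 39.1 CPM with vehicle and 29.9, 29.3, 28.2 and 25.5 CPM with TP-472. Both were highest in vehicle replicate 3, and both fell, by 1.07 ± 0.27 (adjusted p = 0.0157) and 1.00 ± 0.30 (adjusted p = 0.0306) on the log2 scale. Without that library the log2 fold change of PTOV1-AS1 was -0.77 and that of PTOV1 -0.55, under the fold limit, so that only the antisense gene was called. The call of PTOV1-AS1 was lost when TP-472 replicate 2 or 3 was left out.

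MMP25-AS1, SLC9A3-AS1 and ASB16-AS1 rested most on vehicle replicate 3. MMP25-AS1, named for a membrane-anchored matrix metalloproteinase, was at 3.21, 2.10, 13.1 and 1.91 CPM with vehicle and 1.37, 1.21, 0.610 and 1.06 CPM with TP-472. Its log2 fold change was -2.25 ± 0.65 (adjusted p = 0.0257), and -1.18 without that library. SLC9A3-AS1, named for a sodium/proton exchanger whose exons lie opposite 19.3% of its exon bases, was at 14.7, 12.2, 39 and 13.7 CPM with vehicle and 9.73, 9.72, 7.21 and 8.38 CPM with TP-472. The group means lay closer without vehicle replicate 3, with a log2 fold change of -0.63 in place of -1.18 ± 0.37 (adjusted p = 0.0330). ASB16-AS1, named for an ankyrin repeat protein with a SOCS box, was at 9.50, 7.67, 22.8 and 8.66 CPM with vehicle and 6.65, 6, 5.63 and 6.31 CPM with TP-472. Its call (log2 fold change -0.98 ± 0.33, adjusted p = 0.0462) was lost without that library, at a log2 fold change of -0.49. All 3 also lost their call under limma-voom, with the replicate block, and when any TP-472 library was left out, and ASB16-AS1 also without vehicle replicate 1 and with total-count scaling.

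The 5 most abundant antisense genes were FGD5-AS1, THAP9-AS1, OIP5-AS1, NR2F1-AS1 and TP73-AS1, and none was called. OIP5-AS1, a conserved and widely expressed antisense RNA also known as Cyrano, was at 120, 124, 108 and 127 CPM with vehicle and 82.8, 77.6, 76.7 and 85 CPM with TP-472. All vehicle values exceeded all TP-472 values, and the adjusted p was 0.00242, but the log2 fold change of -0.57 ± 0.09 lay under the fold limit. It passed the limit without vehicle replicate 3 (-0.62), without TP-472 replicate 1 or 4, with total-count scaling and with the GC trend removed. OIP5, a centromere protein gene, did not pass the test (log2 fold change 0.16, adjusted p = 0.455). NR2F1-AS1 was at 84.8, 59.6, 65.7 and 61.7 CPM with vehicle and 46.0, 43.2, 38.6 and 59.9 CPM with TP-472, with values that overlapped (log2 fold change -0.53, adjusted p = 0.0352). It was called without vehicle replicate 2, without TP-472 replicate 4 and with the GC trend removed (-0.59, -0.67 and -0.66). Its sense gene NR2F1, an orphan nuclear receptor, fell by 1.05 on the log2 scale (adjusted p = 0.00198).

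FGD5-AS1 was at 121, 132, 102 and 127 CPM with vehicle and 100, 99.7, 103 and 105 CPM with TP-472 (adjusted p = 0.0968). FGD5, a guanine nucleotide exchange factor, fell (log2 fold change -0.81, adjusted p = 0.0358), a call that rested on vehicle replicate 3, at 61 CPM against 26.7 to 34.9 CPM in the other vehicle libraries. Without it the log2 fold change of FGD5 was -0.47, under the fold limit. THAP9-AS1 was at 91.6 ± 19.4 CPM with vehicle and 110 ± 1.97 CPM with TP-472 (adjusted p = 0.201), and TP73-AS1 was at 59.3 ± 16.4 and 44.2 ± 2.66 CPM (adjusted p = 0.0876). These 3 were all more abundant per length than their sense genes, by the mean of all libraries.

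A list of 24 widely described antisense RNAs held 15 members, of which MAPKAPK5-AS1 rose and IRF1-AS1, MCM3AP-AS1, PSMB8-AS1 and LOXL1-AS1 fell. MAPKAPK5-AS1 starts 72 bases from MAPKAPK5, a stress-activated kinase, and 34.6% of its exon bases lie under exons of that gene. It was at 9.48, 13.5, 4.98 and 11.9 CPM with vehicle and 20.7, 18.8, 19.7 and 18.1 CPM with TP-472. The groups were apart, with a log2 fold change of 0.95 ± 0.27 (SE, adjusted p = 0.0226), and of 0.73 without vehicle replicate 3. MAPKAPK5 was at 68.0 ± 4.21 and 63.7 ± 0.305 CPM (log2 fold change -0.09, adjusted p = 0.422). The call of MAPKAPK5-AS1 was lost without vehicle replicate 1 or without TP-472 replicate 1, 2 or 3.

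MCM3AP-AS1, named for a protein of messenger RNA export and with 19.0% of its exon bases under exons of MCM3AP and AP001469.3, was at 8.98, 6.90, 11.3 and 7.50 CPM with vehicle and 5.20, 4.48, 5.49 and 5.94 CPM with TP-472. The log2 fold change was -0.71 ± 0.19 (SE, adjusted p = 0.0169), and -0.56, under the fold limit, without vehicle replicate 3. The call of MCM3AP-AS1 was also lost without TP-472 replicate 2 (adjusted p = 0.0570). PSMB8-AS1, head-to-head with the immunoproteasome subunit PSMB8, was at 2, 2.85, 2.34 and 2.16 CPM with vehicle and 1.5, 1.24, 1.28 and 1.80 CPM with TP-472 (log2 fold change -0.68 ± 0.20, adjusted p = 0.0255). Exons of PSMB8 and TAP1 lie opposite 55.0% of its exon bases, and PSMB8 had a log2 fold change of -0.39 (adjusted p = 0.0593). LOXL1-AS1, head-to-head with LOXL1, an enzyme that cross-links elastin, was at 3.33, 3.62, 4.17 and 3.48 CPM with vehicle and 2.69, 1.92, 2.33 and 2.72 CPM with TP-472. It fell by 0.59 ± 0.17 on the log2 scale (adjusted p = 0.0258), close to the fold limit, and LOXL1 fell by 1.52 (adjusted p = 0.0238). Without vehicle replicate 3, in which LOXL1 was at 17.1 CPM against 4.57 to 5.49 CPM in the other vehicle libraries, LOXL1-AS1 was no longer called (log2 fold change -0.52) and LOXL1 had a log2 fold change of -0.84. The call of PSMB8-AS1 was lost without vehicle replicate 2, without TP-472 replicate 1, 2 or 3, with the replicate block and with no filter on low counts, and that of LOXL1-AS1 without TP-472 replicate 2 or 3, with the replicate block, with no filter and with the GC trend removed.

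CDKN2B-AS1, also known as ANRIL, spans all of CDKN2B on the opposite strand without sharing exon bases with it, and was at 37.8, 29.1, 26.3 and 31.1 CPM with vehicle and 19.2, 20.5, 19.0 and 28.1 CPM with TP-472. The values overlapped through TP-472 replicate 4, and the log2 fold change of -0.52 ± 0.17 (adjusted p = 0.0393) lay under the fold limit. It was called without vehicle replicate 3 (-0.59, adjusted p = 0.00702), without TP-472 replicate 4 (-0.67) and with the GC trend removed (-0.68). CDKN2B, which encodes p15, was at 21.0 ± 1.73 and 20.2 ± 0.595 CPM (adjusted p = 0.681). FOXD2-AS1 ranged from 2.30 to 12.5 CPM with vehicle and from 2.25 to 3.14 CPM with TP-472 (log2 fold change -1.24, adjusted p = 0.0713). Its log2 fold change was -0.59 without vehicle replicate 3, and it was called by DESeq2, with no filter, and without vehicle replicate 2 or 4. ZEB1-AS1, GABPB1-AS1, TMPO-AS1, PCBP1-AS1 and PSMA3-AS1 did not pass the test, with log2 fold changes between -0.38 (TMPO-AS1) and 0.21 (PCBP1-AS1).

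The antisense genes were also grouped by what the sense gene does, and the counts in these small groups stand beside 12.0% higher and 14.9% lower over all genes tested and a median log2 fold change of -0.03. The antisense genes of zinc finger factors rose in 4 of 11 cases, fell in 2 and did not pass the test in 5, with a median log2 fold change of 0.24. ZNF433-AS1 (0.66, adjusted p = 0.0180), ZNF22-AS1 (0.67, adjusted p = 0.0291), ZNF436-AS1 (0.83, adjusted p = 0.00819) and ZNF674-AS1 rose, while ZNF337-AS1 (-0.67, adjusted p = 0.0240) was lower, with -0.56 and no call without vehicle replicate 3. ZNF710-AS1 (-2.07) was also lower and exceeded 1 CPM in the vehicle libraries only. None of the 11 zinc finger sense genes was called by edgeR or limma-voom, while 6 had an unadjusted p under 0.05 and DESeq2 called 1. Among them ZNF337 had an adjusted p of 0.00652 with a log2 fold change of -0.53, under the fold limit.

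For sense genes of interferon and inflammation, IRF1-AS1 and PSMB8-AS1 fell and HLA-F-AS1, CD27-AS1 and TRAF3IP2-AS1 did not pass the test. HLA-F, a nonclassical class I histocompatibility gene, fell (log2 fold change -1, adjusted p = 0.00198), while HLA-F-AS1 had a log2 fold change of -0.44 (adjusted p = 0.116). For the cell cycle, replication and mitosis, MCM3AP-AS1 fell and OIP5-AS1, CDKN2B-AS1, TMPO-AS1, KIF9-AS1 and INTS6-AS1 were not called. KIF9, which encodes a kinesin motor protein, was the sense gene called in this group (log2 fold change 0.99, adjusted p = 0.00684).

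For the matrix, adhesion and contraction, MMP25-AS1, LOXL1-AS1 and ITGA9-AS1 fell, VIM-AS1 rose (log2 fold change 0.65, adjusted p = 0.0295), and 4 of the 8 were not called. VIM-AS1 was at 1.88, 1.64, 2 and 2 CPM with vehicle and 2.41, 3.58, 2.41 and 3.43 CPM with TP-472, while VIM had a log2 fold change of -0.41 (adjusted p = 0.0983). For growth and signalling, MAPKAPK5-AS1 rose, MAP3K14-AS1 was lower (-1.17), exceeding 1 CPM in the vehicle libraries only, and 4 of 6 were not called. The only HOX member, HOXB-AS1, was not called (0.20, adjusted p = 0.457). The remaining 179 members belonged to no list, with 25 higher and 29 lower.

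The sense genes were 211 distinct protein-coding genes, of which 182 passed the filter on low counts. Of these, 17 were higher and 26 lower with TP-472 (23.6%, against 26.9% of all genes). They formed 186 pairs with an antisense gene. Both genes rose in 4 pairs and both fell in 10, and they moved in opposite directions in 3. The falling pairs include SNAP25-AS1 and DLGAP1-AS3, above 1 CPM with vehicle only. The rising pairs include RRS1-AS1 and SPRY4-AS1, whose vehicle libraries lay mostly under 1 CPM, so the counts are a description. Over the 142 pairs whose antisense gene exceeded 1 CPM in all 8 libraries, both rose in 1, both fell in 8 and 3 were opposite, with a Pearson correlation of 0.197. The 14 pairs called in the same direction became 7, 7, 6 and 9 without TP-472 replicate 1, 2, 3 and 4, and 8 with the replicate block. Without vehicle replicate 3, both rose in 6 pairs and both fell in 5, and 3 of the 4 pairs and 5 of the 10 kept both calls. The antisense gene alone was called in 42 pairs, 20 higher and 22 lower, the sense gene alone in 29, and neither in 98. The 2 log2 fold changes had the same sign in 98 pairs (52.7%). Across the pairs their Pearson correlation was 0.275 and their Spearman correlation 0.262, as a description over pairs that share the same 8 libraries. Among the 27 tested pairs with the antisense gene called higher, the sense gene rose in 4, fell in 3 and was not called in 20. Among the 32 with the antisense gene called lower, it fell in 10, rose in 0 and was not called in 22. DESeq2 and limma-voom called 0 of these sense genes higher, and 4 had a positive change at an unadjusted p under 0.05.

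The pairs differed in count by placement, although no test was made between placements. Of 130 head-to-head pairs, both genes rose in 4 and both fell in 8, in 27 the antisense gene alone and in 15 the sense gene alone was called, and no pair was called in opposite directions by edgeR, DESeq2 or limma-voom, while 5 were opposite at an unadjusted p under 0.05 with no fold limit. The Pearson correlation was 0.427 and the Spearman correlation 0.325, with SNAP25-AS1, above 1 CPM with vehicle only, among these pairs. The 2 log2 fold changes had the same sign in 67 of the 130 (51.5%). Of 40 tail-to-tail pairs, none was called in the same direction and 1 in opposite directions, with 12 called for the antisense gene alone and 11 for the sense gene alone, and the Pearson correlation was 0.006. Their Spearman correlation was -0.017, and the signs were the same in 20 of the 40, so agreement in sign hardly differed between the 2 placements. DESeq2 and limma-voom also called 0 tail-to-tail pairs in the same direction, and 5 had an unadjusted p under 0.05 for both genes. Without vehicle replicate 3, both genes rose in 6 and fell in 4 of the 130 head-to-head pairs. Of the 40 tail-to-tail pairs, 0 were then called in the same direction. The Pearson correlations were then 0.427 and -0.043, and the signs were the same in 75 of the 130 and 19 of the 40. Split after the data were seen, the 83 tested head-to-head pairs with outermost starts within 1000 bases had 2 pairs in which both rose and 3 in which both fell, and the other 47 had 2 and 5, with Pearson correlations of 0.27 and 0.545. Of 40 pairs of a -DT gene and its named neighbour, both fell in 2 and none was called in opposite directions. Of the 48 tested pairs whose promoter windows shared bases, both genes were called in the same direction in 2, the antisense gene alone in 14 and the sense gene alone in 1. These pairs include ARHGAP29-AS1, which starts inside its sense gene, and leave out the head-to-head ERICH6-AS1, whose sense gene was not tested. The 14 include ARHGAP29-AS1 and RUSC1-AS1, each above 1 CPM in 1 group only.

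**Figure D3:**
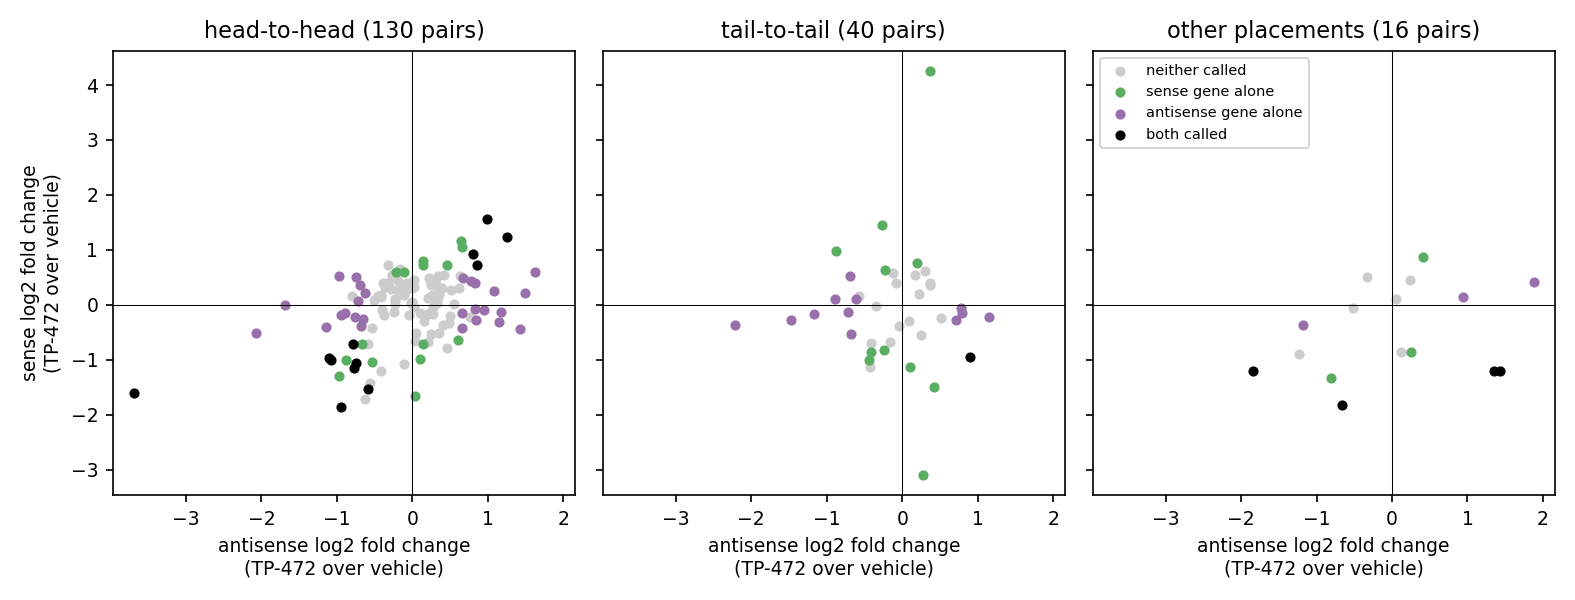
Log2 fold change (TP-472 over vehicle) of the antisense gene (horizontal axis) and of its sense gene (vertical axis) for the 186 pairs with both genes tested, 1 point per pair, in separate panels for 130 head-to-head, 40 tail-to-tail and 16 other pairs. Black points, with both genes called, lie in the lower left and upper right of the head-to-head panel and include 1 opposite pair in the tail-to-tail panel. The highest point is TTN at 4.26.

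The 14 pairs called in the same direction included NNT, PTOV1 and LOXL1 above. Of these 14, the 5 in which the smaller of the 2 changes was largest were SNAP25, RRS1, DLGAP1 with DLGAP1-AS3, PTOV1 and SPRY4. SNAP25-AS1 (chr20:10021978-10368776, minus strand) runs across the whole of SNAP25, which encodes a membrane fusion protein of synaptic vesicle release, and shares no exon bases with it. Their closest transcript starts are 249 bases apart and their outermost starts 149946 bases. It was at 3.35, 2.47, 3.01 and 2.14 CPM with vehicle and 0.207, 0.169, 0.222 and 0.238 CPM with TP-472. Its log2 fold change was -3.69 ± 0.24 (SE), given with no test because it became a member through the vehicle libraries, the only ones above 1 CPM. SNAP25 was at 4.38, 4.68, 4.11 and 4.10 CPM with vehicle and 1.11, 1.41, 1.36 and 1.77 CPM with TP-472, a fall of 1.61 ± 0.18 on the log2 scale (adjusted p = 0.000394). The ratio of antisense to sense differed by -1.62 on the log2 scale.

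RRS1-AS1, head-to-head with the ribosome assembly factor RRS1, was at 0.970, 0.345, 0.666 and 0.393 CPM with vehicle and 1.14, 1.16, 1.30 and 2.06 CPM with TP-472. Both rose, RRS1-AS1 by 1.25 ± 0.36 and RRS1 by 1.23 ± 0.26 (adjusted p = 0.00719) on the log2 scale. RRS1-AS1 is given with no test because it exceeded 1 CPM in 1 vehicle library and in all 4 TP-472 libraries. The call of RRS1-AS1 was lost without vehicle replicate 4, without TP-472 replicate 3 or 4, and with the replicate block. SPRY4-AS1, head-to-head with SPRY4, an inhibitor of receptor tyrosine kinase signalling, was at 1.11, 0.719, 0.666 and 0.646 CPM with vehicle and 1.48, 1.72, 1.30 and 1.77 CPM with TP-472. SPRY4 was at 23.0, 14.3, 34 and 19.3 CPM with vehicle and 64.0, 57.0, 59.2 and 87.7 CPM with TP-472. The groups were apart for both genes, with log2 fold changes of 0.99 ± 0.23 for SPRY4-AS1 and 1.56 ± 0.26 for SPRY4 (adjusted p = 0.00255). SPRY4-AS1 too exceeded 1 CPM in 1 vehicle library and in all 4 TP-472 libraries, and is given with no test.

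The other pairs called in the same direction, named because their values were seen to pass, were ZBTB11-AS1 (0.86) with ZBTB11 (0.73), ARF4-AS1 (0.80) with ARF4 (0.93), PLBD1-AS1 (-0.79) with PLBD1 (-0.70), PAX8-AS1 (-0.74) with PAX8 (-1.06), C1RL-AS1 (-0.95) with C1RL (-1.87), LIPE-AS1 (-0.78) with LIPE (-1.14) and ZFHX2-AS1 (-0.67) with ZFHX2 (-1.83), all as log2 fold changes. Exons of the sense gene lie opposite 50.4% of the exon bases of ARF4-AS1, 43.5% of those of PLBD1-AS1 and 32.5% of those of ZBTB11-AS1, so reads of these pairs cannot be told apart with certainty. Without vehicle replicate 3, LIPE, PTOV1 and ZBTB11 among the sense genes and LOXL1-AS1, PAX8-AS1 and ZFHX2-AS1 among the antisense genes were no longer called, and the log2 fold changes of ZFHX2 and LIPE were then -0.75 and -0.54. ARF4 encodes a small GTPase of Golgi traffic, PAX8 a developmental transcription factor, and LIPE the hormone-sensitive lipase.

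All 3 pairs called in opposite directions had the antisense gene higher and the sense gene lower. DLGAP1 encodes a scaffold protein of the postsynaptic density, and 3 antisense genes of the set lie inside it. DLGAP1-AS1 (chr18:3593732-3598352) and DLGAP1-AS2 (chr18:3603000-3608336) lie near each other, and DLGAP1-AS3 (chr18:3878180-3897069) lies apart from them. The start of DLGAP1-AS3 is 1896 bases from that of the nearest annotated DLGAP1 transcript and 577155 bases from the outermost start of DLGAP1. None of the 3 shares exon bases with DLGAP1.

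DLGAP1-AS1 was at 2.22, 1.75, 2.52 and 2 CPM with vehicle and 5.28, 5.61, 4.58 and 6.18 CPM with TP-472. DLGAP1-AS2 was at 3.60, 2.41, 2.95 and 3.79 CPM with vehicle and 9.27, 8.03, 8.24 and 8.82 CPM with TP-472. Both rose, by 1.35 ± 0.17 (adjusted p = 0.000763) and 1.43 ± 0.17 (adjusted p = 0.000561) on the log2 scale, with no overlap between the groups. DLGAP1-AS3 was at 2.33, 1.70, 1.07 and 1.57 CPM with vehicle and 0.388, 0.620, 0.416 and 0.423 CPM with TP-472, a log2 fold change of -1.85 ± 0.29, given with no test because only its vehicle libraries exceeded 1 CPM. DLGAP1 was at 30.8, 26.1, 31.6 and 25.3 CPM with vehicle and 12.3, 12.7, 11.2 and 13.4 CPM with TP-472, and fell by 1.20 ± 0.12 (adjusted p = 0.000264). The ratio to DLGAP1 differed by 2.50 for DLGAP1-AS1, by 2.61 for DLGAP1-AS2 and by -0.43 for DLGAP1-AS3 on the log2 scale, as a description of pairs chosen for their calls. DLGAP1-AS1 and DLGAP1-AS2 kept their calls in every alternative that tested them.

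TMEM44-AS1 (chr3:194584011-194590260) is tail-to-tail with TMEM44, which encodes a membrane protein. It was at 3.13, 2.44, 1.88 and 3.65 CPM with vehicle and 5.00, 5.86, 5.27 and 4.68 CPM with TP-472, and TMEM44 was at 13.6, 11.8, 24.5 and 10.8 CPM with vehicle and 7.69, 7.13, 8.91 and 7.58 CPM with TP-472. The antisense values rose and the sense values fell with no overlap, by log2 fold changes of 0.90 ± 0.22 (adjusted p = 0.0120) and -0.96 ± 0.26 (adjusted p = 0.0193). TMEM44 was highest in vehicle replicate 3, and without it TMEM44 had a log2 fold change of -0.63, just past the fold limit, and TMEM44-AS1 one of 0.76.

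TTN-AS1 (chr2:178521183-178779963) lies tail-to-tail with TTN, the gene of the giant sarcomere protein titin, and 55.1% of its exon bases lie under exons of TTN. It was at 31.9, 29.9, 23.4 and 29.2 CPM with vehicle and 34, 37.9, 35.7 and 40.4 CPM with TP-472, with a log2 fold change of 0.37 ± 0.12 (SE, adjusted p = 0.0438), under the fold limit. TTN was at 0.111, 0.144, 0.0290 and 0.112 CPM with vehicle and 1.84, 2.20, 1.5 and 2.30 CPM with TP-472. TTN was thus near 0 with vehicle under a well expressed antisense gene. Its log2 fold change was 4.26 ± 0.34, given with no test because it passed the filter through the TP-472 libraries only.

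**Figure D4:**
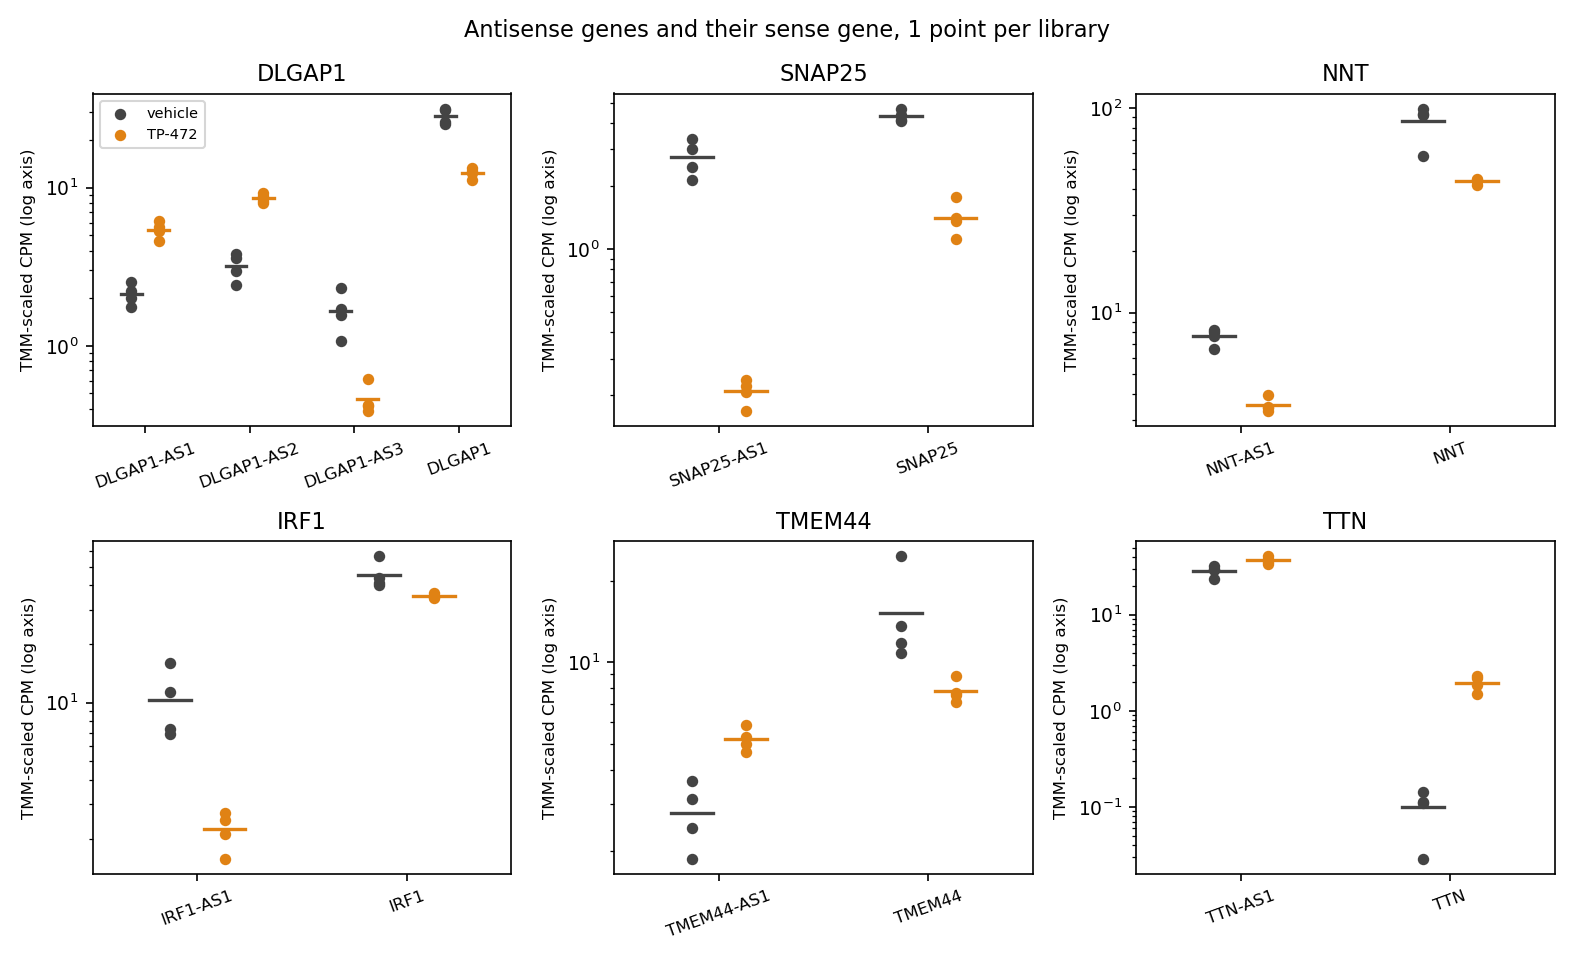
Level of antisense genes and of their sense gene at 6 loci, in TMM-scaled CPM on log axes, 1 point per library and a line at each group's mean of 4 libraries. At DLGAP1, DLGAP1-AS1 and DLGAP1-AS2 rise while DLGAP1-AS3 and DLGAP1 fall, at SNAP25 and NNT both genes fall, at IRF1 the antisense gene falls further, at TMEM44 the 2 genes move in opposite directions, and at TTN the sense gene starts near 0.

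PAXIP1 and PTOV1 were the other loci with more than 1 member. PAXIP1-AS2, at the end of this DNA repair gene, was at 12.3, 12.4, 11.5 and 10.7 CPM with vehicle and 8, 8.03, 7.46 and 7.21 CPM with TP-472 and fell (log2 fold change -0.61, adjusted p = 0.00454). PAXIP1-AS1, at its start, had a log2 fold change of 0.32 (adjusted p = 0.150), and PAXIP1 of 0.10 (adjusted p = 0.531). PTOV1-AS2 had a log2 fold change of -0.88 (adjusted p = 0.181), which was -0.07 without vehicle replicate 3. The difference between antisense genes of 1 locus was not tested.

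The 10 members above 1 CPM in 1 group only were SNAP25-AS1, DLGAP1-AS3, ZNF710-AS1, MAP3K14-AS1, RUSC1-AS1, TMC3-AS1 and BCDIN3D-AS1 with vehicle and IDI2-AS1, ARHGAP29-AS1 and LIMD1-AS1 with TP-472, of which those not named above are given because their values were seen. IDI2-AS1 was at 0.194, 0.115, 0.261 and 0.365 CPM with vehicle and 1.4, 1.07, 1.19 and 1.45 CPM with TP-472, a log2 fold change of 2.43 ± 0.31, given with no test because only its TP-472 libraries exceeded 1 CPM, and its exons lie opposite those of IDI1, an enzyme of isoprenoid synthesis. The rule's edge lay among genes such as INTS6-AS1, inside it with 4 libraries above 1 CPM, at a mean of 0.983 CPM by library total. TMCO1-AS1 and DCST1-AS1, outside it with 3 libraries, had means of 1.00 and 0.995 CPM.

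**Figure D5:**
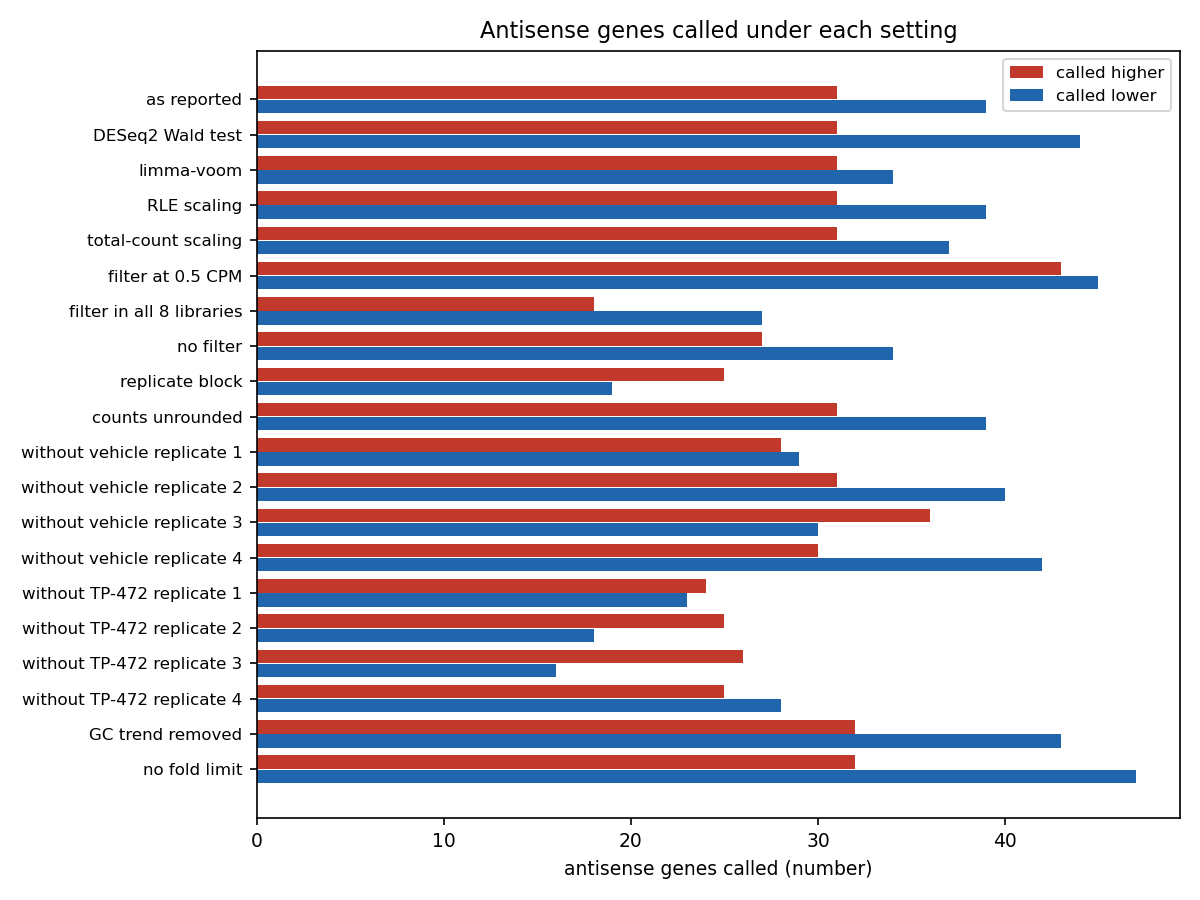
Number of antisense genes called higher (red) and lower (blue) with TP-472 as reported and under each alternative setting, 1 pair of bars per setting. As reported there are 31 and 39. Leaving out TP-472 replicate 3 gives the fewest called lower, 16, and without vehicle replicate 3 there are 36 higher and 30 lower.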

How the data were processed

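RNA of SK-UT-1 cells was measured in 4 vehicle and 4 TP-472 libraries. The authors sequenced the libraries on a NovaSeq instrument, and the submitters' processing notes name Salmon 1.4.0 and GRCh38. The deposited table holds 1 column per library of estimated counts per gene of GENCODE 34, of which 13.8% to 23.2% were not whole numbers. These expected counts are not normalized and were rounded here. The columns were matched to samples by group and replicate number, and no value column was left unmatched.

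Genes with CPM over 1 in at least 4 of 8 libraries (14073) were fitted with edgeR 4.0.16 in R 4.3.3 (TMM factors, glmQLFit and glmQLFTest), with Benjamini-Hochberg adjustment over all of them. A call required an adjusted p under 0.05 and a fold over 1.5, the thresholds the study gives. Ratios of antisense to sense were log2 of CPM plus 0.1 for each gene, given with no test, as the choice of genes bore on them. Genes above 1 CPM in 1 group only are given with no p. So are RRS1-AS1, SPRY4-AS1 and HOXA11, whose vehicle libraries lay mostly under 1 CPM. The procedure was tested on simulated data. Positions and exon lengths came from GENCODE 29 (GRCh38), joined by gene identifier without version, and all 217 members were found. No pair of libraries agreed within sampling noise (lowest mean chi-square between replicates 12.9). The deviations of same-numbered libraries from their group means had correlations of -0.06, 0.12, -0.17 and -0.18.

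Named genes were the 8 largest called changes in each direction among members averaging 2 CPM or more whose groups did not overlap, the 5 most abundant members, members of a list of 24 widely described antisense RNAs, the 5 largest jointly called pairs in each direction class, and 2 genes on each side of the rule's edge. Some genes that these rules or lists pick are not reported here. The members, lists and tests were chosen with earlier results of these data known. Alternatives were DESeq2 1.42.0, limma-voom 3.58.1, other scalings and filters, a replicate block, unrounded counts, no fold limit, each library left out, and a GC trend removed (added after seeing the data; 99.3% of genes had a GC value).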

Additional observations from a re-analysis of the deposited data

Results flagged for a closer look

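In 80 groups of 4 libraries (40 named antisense genes, both treatments), the highest or lowest library was far from the other 3 by Dixon's criterion in 13, and chance flags about 1 in 20 groups. Vehicle replicate 3 was the library that stood apart in 8 of the 13. It was at 13.1 CPM for MMP25-AS1 against 1.91 to 3.21 CPM in the other vehicle libraries, at 12.7 CPM for JMJD1C-AS1 against 5.56 to 5.98, and at 4.89 CPM for ITGA9-AS1 against 2.92 to 3.05. For SLC9A3-AS1 it was at 39 CPM against 12.2 to 14.7, for ASB16-AS1 at 22.8 CPM against 7.67 to 9.50, and for TP73-AS1 at 83.8 CPM against 49.1 to 53.3. For GABPB1-AS1 it was at 40.4 CPM against 27.8 to 29.7 and for TMPO-AS1 at 9.38 CPM against 5.37 to 6.01. In all 8 it was the highest vehicle library.

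Vehicle replicate 1 was at 1.11 CPM for SPRY4-AS1, against 0.646 to 0.719 in the other vehicle libraries. In the TP-472 group, replicate 2 was at 4.57 CPM for USP2-AS1 against 3.17 to 3.31 and at 0.620 CPM for DLGAP1-AS3 against 0.388 to 0.423. TP-472 replicate 1 was at 48.2 CPM for TP73-AS1 against 42.5 to 43.4, and TP-472 replicate 4 was at 28.1 CPM for CDKN2B-AS1 against 19.0 to 20.5.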

How the results depend on the processing

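With DESeq2, limma-voom, RLE scaling, total-count scaling, no filter, unrounded counts and the GC trend removed (added after seeing the data), each count of called antisense genes, sense genes and pairs stayed within 1.5 times the reported count, with 61 to 75 antisense genes called against 70. A filter at 0.5 CPM gave 88 called of 307 antisense genes (28.7%, against 27.2% of all genes) and 42 sense genes lower against 26. The filter in all 8 libraries left 162 antisense genes, with 18 higher, 11 sense genes higher and 8 pairs called in the same direction. It called 45 of these antisense genes (27.8%), against 24.8% of all genes. With no fold limit, 35 sense genes were higher and 8 pairs were opposite. The replicate block gave 19 antisense genes lower against 39, 8 pairs in the same direction against 14, and 44 antisense genes called in all, 20.3% against 21.7% of all genes, where the reported shares are 32.3% and 26.9%. Only replicate 2 of the 4 same-numbered pairs had a correlation over 0.1 and no library correlated best with its own number. The sources do not say what same-numbered libraries share, and whether they share a batch was not tested.

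Leaving out each library in turn gave 24 to 36 antisense genes higher, 16 to 42 lower, 15 to 22 sense genes higher, 17 to 32 lower, 6 to 16 pairs in the same direction and 2 to 5 opposite. The counts of antisense genes lower without TP-472 replicate 1, 2 or 3 were 23, 18 and 16, and pairs in the same direction without TP-472 replicate 1, 2, 3 or 4 were 7, 7, 6 and 9, against 14. Sense genes lower were 17 without any of TP-472 replicates 1, 2 and 3, and opposite pairs were 5 without vehicle replicate 2. The cause was not tested. Over the 40 named antisense genes and these alternatives, 647 fold changes kept their direction and their side of the threshold, 49 no longer passed it, 15 newly passed it and 0 changed sign. Members near 1 CPM rest on about 33 to 39 counts per library, intervals cover the spread between these libraries only, and strand assignment was not tested beyond the overlap measurement.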

Other observations

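Of the 24 widely described antisense RNAs, 9 were not members. HIF1A-AS1 had 0 counts in every vehicle library and 1, 1, 0 and 0 counts with TP-472, and EGFR-AS1 had 0 counts in all 8 libraries. HIF1A-AS3 had 6, 0, 6 and 7 counts with vehicle and 12, 14, 9 and 10 with TP-472, and HOXB-AS3 had 3, 1, 10 and 3 counts with vehicle and 19, 11, 8 and 6 with TP-472. HAND2-AS1 had at most 7 counts, LEF1-AS1 at most 5 and ITGB2-AS1 at most 2 in any library. HIF1A-AS2 and STAT4-AS1 were not listed under these names.

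Among the abundant members outside the naming rule, chosen here after their values were seen, THUMPD3-AS1 was at 28.3, 27.4, 21.9 and 28.6 CPM with vehicle and 48.4, 52.1, 50.6 and 52.8 CPM with TP-472 (log2 fold change 0.94 ± 0.12, adjusted p = 0.000601 by edgeR). ENTPD1-AS1 was at 31.9, 34.5, 24.7 and 34.9 CPM with vehicle and 48.6, 48.5, 49.4 and 49.9 CPM with TP-472 (0.64, adjusted p = 0.00510), and SVIL-AS1 was at 18.1, 16.7, 14.3 and 15.9 CPM with vehicle and 27.6, 27.1, 26.7 and 31.3 CPM with TP-472 (0.79, adjusted p = 0.00142). The TP-472 libraries lay above the vehicle libraries in all 3. Vehicle replicate 3 was the lowest library in each, ENTPD1-AS1 lay close to the fold limit, and values without that library are not given for these genes. SVIL, which encodes the actin-binding protein supervillin, had a log2 fold change of -0.16 (adjusted p = 0.478), and THUMPD3 of 0.15 (adjusted p = 0.475).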
